A study of Mus musculus with 12 samples.

Results

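Collagens are the triple-helical proteins of the extracellular matrix, and their expression was followed here in mouse renal cortex after glycerol injury. The genes were chosen by name: a probe set counted when the array annotation gave it exactly 1 gene symbol of the form of a collagen chain, and for each gene the probe set with the highest mean over the 12 arrays was read. This gave 44 collagen genes of 19938 genes measured, among them 11 fibrillar collagens, the 6 type IV chains of basement membranes and 27 others. Each array came from the cortex of a healthy or an injured mouse kidney, with 3 arrays in each of 4 groups. The gene targeted was nr3c1, which encodes the glucocorticoid receptor (GR), and it was floxed on both alleles in every mouse. Control mice were nr3c1 flox/flox with no Cre named. GR-deficient mice were Pax8-Cre;nr3c1 flox/flox, a design meant to remove the receptor from tubular epithelium, where the Pax8 promoter drives Cre. Bulk cortex does not show which cells lost the receptor and which kept it. Acute kidney injury (AKI) of the myoglobinuric kind was produced by glycerol given into the muscle, and cortices were taken 24 hours later. Healthy mice formed a separate cohort that had no injection, so injury and injection cannot be told apart, and neither can loss of the receptor and any effect of Pax8-Cre itself. Neither age nor sex of the mice was stated. The labels do not say that replicates of a group came from separate mice, so p-values measure the spread between these samples only.

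Fibrillar collagens, with types I and III at their head, form the tensile fibres of the interstitium and are laid down in excess in kidney fibrosis. Type IV chains form the sheet of every basement membrane: the α1 and α2 chains, encoded by Col4a1 and Col4a2, are found in nearly all of them, while α3, α4 and α5 make the network of the mature glomerular basement membrane and of parts of the tubule. In the genome the 6 type IV genes lie in head-to-head pairs that are read in opposite directions from a shared promoter region. The other collagens decorate fibrils (the fibril-associated group, FACIT), link basement membranes to the matrix (type XVIII), form short-chain networks around vessels (type VIII), build beaded filaments (type VI) or span the plasma membrane. Glucocorticoids act through the receptor studied here and are known to lower collagen synthesis in skin and in cultured fibroblasts.

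Values are log2 expression, so a difference of 1 is a doubling, and levels of different probe sets were not compared with each other. Nr3c1 itself read 9.65, 9.48 and 9.52 in healthy control cortex and 8.18, 8.13 and 8.21 in healthy GR-deficient cortex, and every GR-deficient array lay below every control array. After AKI it read 8.82, 8.89 and 8.86 in control cortex, a fall of 0.69 (adjusted p = 6.56e-05 by limma), and 8.10, 7.96 and 7.87 in GR-deficient cortex. The genotype difference was -1.38 in healthy and -0.88 in injured cortex, with an interaction of 0.50 (adjusted p = 0.0299 by limma). The mean of 43 of the 44 collagen genes lay above 5.998, the 95th percentile of 1027 olfactory receptor genes used as a guide to background. Col10a1, a chain of growth cartilage, lay below it. A mean above the guide does not show that a gene is expressed, because the guide comes from other probe sets. Cartilage chains such as Col2a1 (mean 7.43) and Col9a3 (7.68) also lay above it. A pair of arrays stood apart. Replicate 1 of control AKI had the narrowest spread of values (SD 1.88, against 1.96 to 2.06 on the other 11 arrays) and held the highest value of 25 of the 44 collagens, where 27.7% of all genes were highest on it. Replicate 1 of the healthy GR-deficient group read high for several collagens, as given below. Where 15.1% of all genes fell with injury in control cortex, all 8 markers of the proximal tubule fell. So did 5 of 8 markers of the loop, distal tubule and collecting duct.

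In control cortex, 10 of the 44 collagens passed the test for a difference between AKI and healthy (limma, adjusted p under 0.05 over all genes), 7 higher and 3 lower. Of all genes, 28.7% passed, 13.6% higher and 15.1% lower, so collagens did not pass more often than genes in general. The 7 that rose were Col4a1, Col4a2, Col18a1, Col3a1, Col8a1, Col12a1 and Col1a1, and the 3 that fell were Col14a1, Col4a4 and Col4a3. By class, 2 of 11 fibrillar, 4 of 6 basement membrane and 4 of 27 other collagens passed. The median difference was 0.20 for fibrillar, -0.20 for basement membrane and 0.04 for other collagens, beside 0.00 over all genes. These medians moved with single control AKI arrays: in the same order they were 0.09, -0.36 and -0.13 without replicate 1, 0.25, -0.20 and 0.11 without replicate 2, and 0.29, -0.05 and 0.13 without replicate 3. Without replicate 1, 14 collagens passed, 7 higher and 7 lower, and the 4 added, all lower, were Col4a5, Col10a1, Col26a1 and Col27a1.

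**Figure D1:**
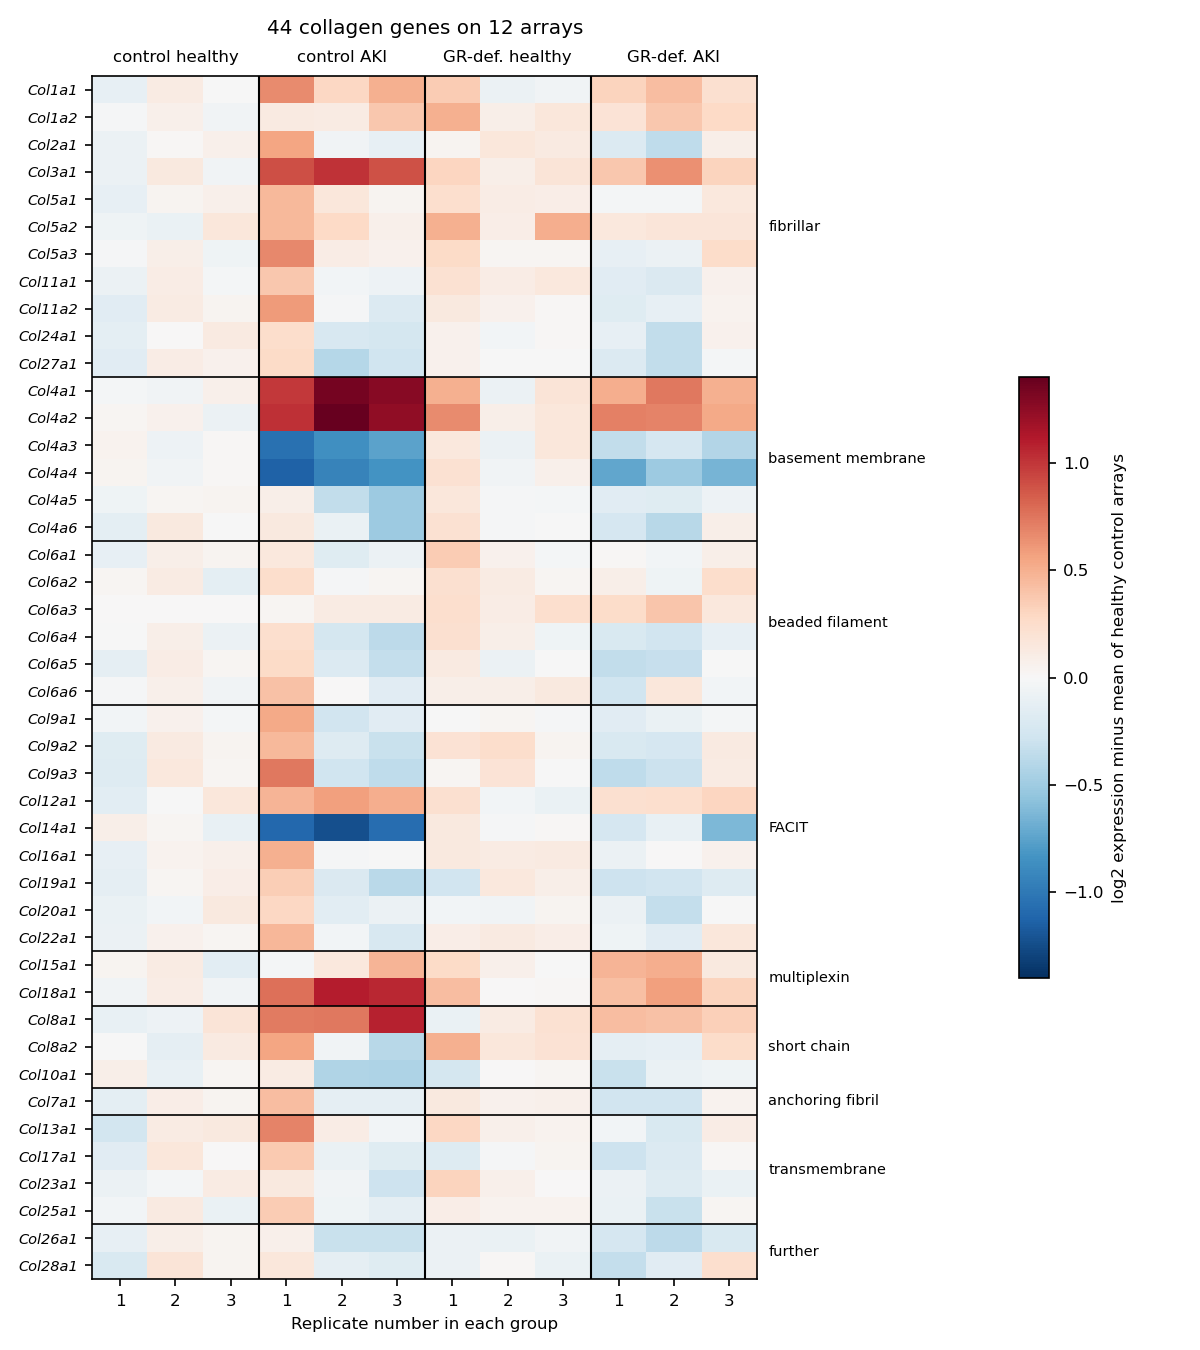
Log2 expression of the 44 collagen genes (rows, grouped by subfamily) on the 12 arrays (columns, by group and replicate number), each shown as the difference from the mean of the 3 healthy control arrays, with red above and blue below. Col4a1, Col4a2, Col3a1, Col18a1 and Col8a1 are red and Col4a3, Col4a4 and Col14a1 blue on all 3 control AKI arrays, with paler colours on the GR-deficient AKI arrays, and most other rows are redder on replicate 1 of control AKI than on replicates 2 and 3.

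The sequences around the start sites of 5 of the collagens that changed are given here because their promoters are the regions the type IV pairs share and the sites where start-proximal motifs can be read. They come from RefSeq (GRCm38.p6), from 250 bases before to 50 after the start, and 35 of the 44 genes had such a window. Capitals mark matches, on either strand, to TATAAA, known as the TATA box, to CCAAT, to GGGCGG, known as the GC box, to TGANTCA, the AP-1 site, or to the full palindromic glucocorticoid receptor element, which is AGAACA, any 3 bases and then TGTTCT. Col4a1 was read from chr8:11312777-11313076 on the minus strand, Col4a2 from chr8:11312555-11312854 on the plus strand, Col4a4 from chr1:82586800-82587099 on the minus strand, Col3a1 from chr1:45311288-45311587 on the plus strand and Col8a1 from chr16:57754688-57754987 on the minus strand.
Col4a1: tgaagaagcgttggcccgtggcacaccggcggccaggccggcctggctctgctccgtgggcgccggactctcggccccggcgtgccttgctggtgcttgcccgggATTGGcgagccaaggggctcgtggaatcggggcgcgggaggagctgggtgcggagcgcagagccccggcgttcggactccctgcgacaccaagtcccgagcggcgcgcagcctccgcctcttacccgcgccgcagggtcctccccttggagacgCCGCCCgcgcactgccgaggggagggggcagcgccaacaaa
Col4a2: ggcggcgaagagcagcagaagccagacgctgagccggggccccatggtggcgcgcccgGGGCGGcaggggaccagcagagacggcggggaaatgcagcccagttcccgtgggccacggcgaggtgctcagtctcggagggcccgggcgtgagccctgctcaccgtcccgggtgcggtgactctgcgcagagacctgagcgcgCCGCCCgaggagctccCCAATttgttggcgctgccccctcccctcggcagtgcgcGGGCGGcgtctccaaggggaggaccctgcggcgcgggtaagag
Col4a4: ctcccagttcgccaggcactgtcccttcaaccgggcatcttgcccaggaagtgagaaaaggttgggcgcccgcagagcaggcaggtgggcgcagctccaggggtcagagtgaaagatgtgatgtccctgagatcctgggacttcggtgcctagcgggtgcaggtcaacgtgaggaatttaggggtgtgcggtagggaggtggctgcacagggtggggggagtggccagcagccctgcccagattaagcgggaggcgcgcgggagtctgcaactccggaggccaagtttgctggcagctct
Col3a1: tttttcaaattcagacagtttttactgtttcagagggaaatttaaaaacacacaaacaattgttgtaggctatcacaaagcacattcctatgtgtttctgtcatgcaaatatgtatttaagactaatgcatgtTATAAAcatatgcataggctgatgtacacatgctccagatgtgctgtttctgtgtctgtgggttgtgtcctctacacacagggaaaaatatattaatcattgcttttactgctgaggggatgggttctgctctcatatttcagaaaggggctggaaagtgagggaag
Col8a1: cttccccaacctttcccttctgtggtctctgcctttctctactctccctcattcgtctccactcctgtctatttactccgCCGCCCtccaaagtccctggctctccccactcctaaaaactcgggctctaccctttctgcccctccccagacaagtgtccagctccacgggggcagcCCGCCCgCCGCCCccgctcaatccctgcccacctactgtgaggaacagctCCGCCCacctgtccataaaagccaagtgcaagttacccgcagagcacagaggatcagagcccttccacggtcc

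The windows of Col4a1 and Col4a2 overlap by 78 bases, because their start sites lie 21 bases apart with the first bases of the transcripts crossing. A single GC box at chr8:11312812-11312817, printed as CCGCCC in the Col4a1 window and as GGGCGG in the Col4a2 window, lies in both. Each of these windows also holds a CCAAT match of its own. By gene models, whose ends can differ from the start sites of the windows, Col4a4 and Col4a3 start 113 bases apart and cross. On that measure Col4a1 and Col4a2 start 84 bases apart. The Col4a4 window is set on a start at chr1:82586849, which does not cross the Col4a3 gene model start at 82586921. No motif searched was found in the Col4a4 window. The Col3a1 window holds a TATAAA match and the Col8a1 window 4 GC boxes. Over the 38 collagen windows (some genes have more than 1), 23 held a GC box, 13 a CCAAT, 5 a TATAAA and 1 an AP-1 match, where 35.7%, 37.4%, 13.6% and 7.81% of all 32851 windows did. No collagen window held the full receptor palindrome, which 0.00913% of all windows held. These matches describe letters in a short window and show neither binding nor its absence.

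Among the type IV chains, the α1 and α2 genes rose and the α3 and α4 genes fell in injured control cortex. Col4a1 read 8.47, 8.45 and 8.57 in healthy control cortex and 9.49, 9.84 and 9.77 after AKI. Its head-to-head partner Col4a2 read 8.30, 8.33 and 8.19 in healthy and 9.30, 9.69 and 9.51 in injured control cortex. For both genes every AKI array lay above every healthy array. The differences were 1.20 ± 0.14 (SE, adjusted p = 1.24e-05) for Col4a1 and 1.23 ± 0.15 (adjusted p = 1.4e-05) for Col4a2, a 2.30-fold and a 2.34-fold rise in limma's fit. Col4a3, the chain that carries the Goodpasture antigen, read 9.19, 9.07 and 9.16 in healthy control cortex and 8.10, 8.28 and 8.39 after AKI. Its partner Col4a4 read 8.74, 8.66 and 8.72 and then 7.57, 7.77 and 7.87. Both sets of AKI arrays lay wholly below the healthy ones. Col4a3 fell by 0.88 (SE 0.11, adjusted p = 2.16e-05 by limma) and Col4a4 fell by 0.97 (SE 0.11, adjusted p = 9.52e-06 by limma). These 4 differences passed under every alternative computed.

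The X-linked pair behaved less evenly. Col4a5, the gene of X-linked Alport syndrome, read 7.23, 7.32 and 7.33 in healthy control cortex and 7.38, 6.95 and 6.78 after AKI. Col4a6, its neighbour, whose start lies 1343 bases away, read 5.94, 6.21 and 6.07 and then 6.21, 5.98 and 5.57. In both genes the groups overlapped, and AKI replicate 1 lay as high as the highest healthy array or higher. The difference was -0.25 for Col4a5 (95% interval -0.54 to 0.03, adjusted p = 0.20 by limma) and -0.15 for Col4a6 (-0.50 to 0.19, adjusted p = 0.59 by limma). Without AKI replicate 1, Col4a5 was lower by a difference of -0.42 (adjusted p = 0.00611 by limma).

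**Figure D2:**
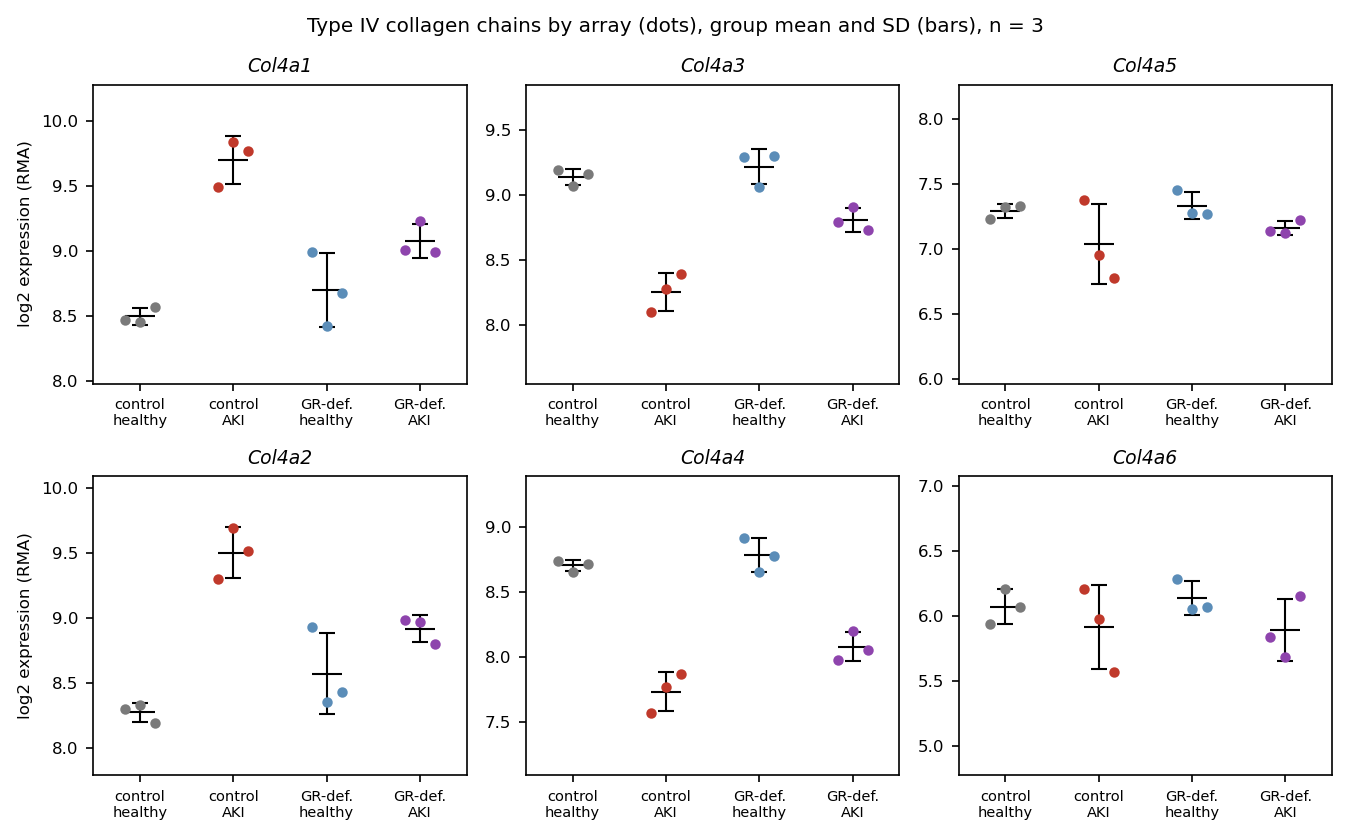
Log2 expression of the 6 type IV collagen genes on each array (dots) with the mean and SD of each group of 3 (bars), one panel per gene with its own axis range. The control AKI dots of Col4a1 and Col4a2 lie above, and those of Col4a3 and Col4a4 below, all other dots of their panels, and the GR-deficient AKI dots lie between them and the healthy control dots.

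The balance between the chain pairs was described by subtracting the mean of Col4a3 and Col4a4 from the mean of Col4a1 and Col4a2 on each array and setting healthy control cortex to 0. On this log2 scale the control AKI arrays read 2.10, 2.28 and 2.05 and the GR-deficient AKI arrays 1.14, 1.08 and 1.04. The healthy GR-deficient arrays read 0.39, 0.06 and 0.06. The groups after injury did not overlap with each other or with the healthy arrays. The means were 2.14 ± 0.12 (SD, n = 3) in control AKI, 1.09 ± 0.05 in GR-deficient AKI and 0.17 ± 0.19 in healthy GR-deficient cortex, a description with no test because the genes were grouped with their values known.

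Podocytes are the main source of the α3 and α4 chains in the glomerulus, and their markers moved unevenly in the same samples. In bulk cortex, fewer cells of a type and less RNA per cell cannot be told apart. Of 7 podocyte markers measured, 1 rose and 2 fell with injury in control cortex, beside 13.6% and 15.1% of all genes. None of the 7 had a mean below the background guide. The falls were in Clic5 (-1.23) and Podxl (-0.35), the rise was in Synpo (0.63), and Nphs1, the gene of nephrin, differed by -0.04 (adjusted p = 0.87 by limma). The summed level of the list ran from 8.79 to 9.01 in healthy control cortex and from 8.32 to 8.57 in control AKI. In GR-deficient cortex it ran from 8.61 to 8.99 in healthy and from 8.69 to 8.85 in injured samples. Its part in the type IV differences was not tested.

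Among the fibrillar collagens, Col3a1 and Col1a1 rose and the rest, Col1a2 of type I among them, were not called. Col3a1, the chain of the thin reticular fibres, read 7.42, 7.64 and 7.45 in healthy control cortex and 8.41, 8.51 and 8.39 after AKI. Col1a1, the major chain of type I collagen, read 7.89, 8.12 and 8.0 and then 8.66, 8.29 and 8.5. In both genes all AKI arrays lay above all healthy arrays, by a wide gap for Col3a1 and a narrow one for Col1a1. Col3a1 rose by 0.93 ± 0.11 (SE, adjusted p = 1.76e-05 by limma) and Col1a1 by 0.48 ± 0.14 (adjusted p = 0.0145 by limma). The Col1a1 call was lost without healthy control replicate 1, where the difference was 0.42 with adjusted p = 0.0678.

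Col1a2, which encodes the partner chain of Col1a1 in the type I heterotrimer, read 8.11, 8.19 and 8.07 in healthy control cortex and 8.25, 8.24 and 8.5 after AKI. The AKI arrays all lay above the healthy ones, but by a small margin on 2 of 3. The difference was 0.20 (95% interval -0.06 to 0.47, adjusted p = 0.28 by limma). The other 8 fibrillar genes, with Col1a2, ran from -0.14 to 0.28, 7 of the 9 positive and 2 negative. They include the type V chains, which start type I fibrils, and the cartilage chains Col2a1, Col11a1 and Col11a2.

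In the other classes, 4 genes were called. Col18a1, the type XVIII chain whose end fragment is endostatin, read 8.18, 8.34 and 8.18 in healthy control cortex and 9.0, 9.33 and 9.29 after AKI. Col8a1, a short-chain collagen of vessel walls, read 6.87, 6.90 and 7.15 and then 7.70, 7.71 and 8.05. Col12a1, a fibril-associated collagen, read 6.20, 6.34 and 6.51 and then 6.83, 6.92 and 6.86. The AKI arrays of all 3 genes lay above their healthy arrays. Col18a1 rose by 0.97 ± 0.14 (SE, adjusted p = 5.96e-05 by limma), Col8a1 by 0.85 ± 0.13 (adjusted p = 0.000101) and Col12a1 by 0.52 ± 0.11 (adjusted p = 0.00226).

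Col14a1, a fibril-associated collagen that binds the surface of type I fibrils and decorin, went the other way. It read 8.34, 8.28 and 8.15 in healthy control cortex and 7.16, 7.03 and 7.19 after AKI, with a wide gap between the groups. It fell by 1.13 (SE 0.13, adjusted p = 8.53e-06 by limma), a 2.18-fold drop. Of the 10 collagens called it had the smallest adjusted p. Its relative Col12a1 rose in the same samples, so the 2 fibril-associated chains that were called moved in opposite directions.

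The remaining 34 collagens were called in none of the 5 comparisons, and in control cortex their differences ran from -0.25 to 0.28, 21 positive and 13 negative. The 6 beaded-filament chains of type VI lay between -0.13 and 0.09. The 7 cartilage chains (types II, IX, X and XI) lay between -0.24 and 0.13. For these 34 genes AKI replicate 1 differed from the others: 33 of 34 lay above the healthy control mean on it, and 8 of 34 did on the mean of replicates 2 and 3. Their median difference from healthy control was 0.35 on replicate 1 and -0.13 on the mean of the other pair.

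**Figure D3:**
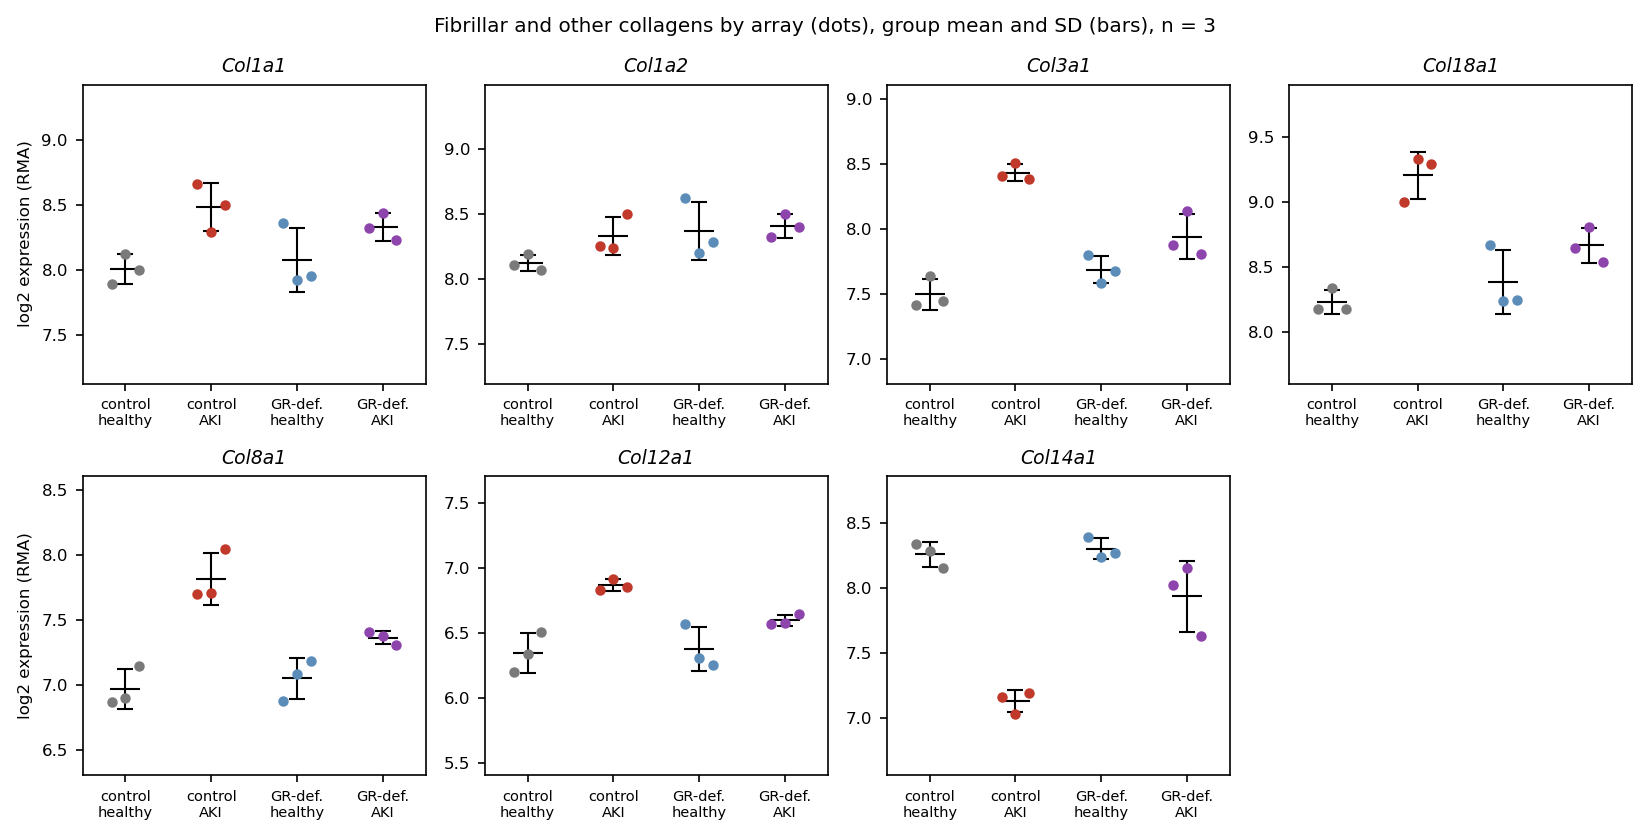
Log2 expression of 7 fibrillar and other collagen genes on each array (dots) with the mean and SD of each group of 3 (bars), one panel per gene with its own axis range. For Col3a1, Col18a1, Col8a1 and Col12a1 the control AKI dots lie above every other dot, for Col14a1 they lie below, and for Col1a1 and Col1a2 they overlap with GR-deficient arrays.

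Markers of the cells that make interstitial collagen showed no common direction in these samples. Over all genes, 13.6% rose and 15.1% fell with injury in control cortex. Of 10 fibroblast markers, 1 rose (Pdgfra, 0.43) and 1 fell (Dcn, -0.62), near those shares, with a median of -0.12. The means of 3 of the 10 lay at or below the background guide. Of 10 mural and mesangial markers, 3 rose and 5 fell, with Pdgfrb higher by 1.02 and Itga8, an integrin chain of mesangial cells, lower by 1.11 on the log2 scale. Of 9 endothelial markers, 3 rose and 3 fell. Neutrophil markers rose in 6 of 7, and the means of 5 of the 7 lay at or below the background guide. Of 8 macrophage markers, 2 rose and 1 fell. Their summed level ran from 7.79 to 8.0 in healthy control cortex and from 8.26 to 8.54 in control AKI. In GR-deficient cortex it ran from 7.73 to 7.98 in healthy and from 7.82 to 8.21 in injured samples. Of 3 markers of the parietal epithelium of the glomerulus, 2 rose and 1 fell (median 1.30). In GR-deficient against control AKI, where 10.0% of all genes were higher and 7.34% lower, 1 of these markers was higher and 2 were lower (median -0.98). The summed parietal level ran from 8.18 to 8.28 in healthy control cortex and from 8.70 to 9.04 in control AKI. In GR-deficient cortex it ran from 8.25 to 8.44 in healthy and from 8.29 to 8.45 in injured samples. The summed fibroblast level ran from 7.8 to 8.11 in healthy control cortex and from 7.75 to 7.91 in control AKI. In GR-deficient cortex it ran from 7.89 to 8.07 in healthy and from 7.96 to 8 in injured samples. The part of these cell types in the collagen differences was not tested.

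In GR-deficient cortex 1 of the 44 collagens passed the test, where 4.64% of all genes did (3.29% higher, 1.35% lower). For the 10 collagens called in control cortex the difference had the same sign and was smaller. These 10 were picked by their control values, so smaller values in the other genotype are in part built into this contrast. The median over the family was -0.14, against 0.06 in control cortex. The called gene was Col4a4, which read 8.92, 8.66 and 8.78 in healthy and 7.98, 8.20 and 8.06 in injured GR-deficient cortex, with no overlap. It fell by 0.71 (SE 0.11, adjusted p = 0.00255 by limma). Col4a3 read 9.29, 9.06 and 9.30 and then 8.79, 8.91 and 8.73. Its AKI arrays lay below its healthy arrays, with a difference of -0.40 (95% interval -0.64 to -0.17, adjusted p = 0.0511 by limma). This value passed when the arrays were quantile normalized again (-0.48, adjusted p = 0.00861 by limma) and under 4 further settings.

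Col4a1 read 8.99, 8.42 and 8.68 in healthy GR-deficient cortex and 9.01, 9.23 and 8.99 after AKI. Col4a2 read 8.93, 8.35 and 8.43 and then 8.98, 8.97 and 8.80. In both genes healthy replicate 1 was the highest of its group, and for Col4a2 it lay among the AKI arrays. The differences were 0.38 (95% interval 0.08 to 0.68, adjusted p = 0.15) for Col4a1 and 0.34 (0.03 to 0.66, adjusted p = 0.22) for Col4a2 by limma. Without healthy GR-deficient replicate 1, Col4a2 passed with 0.52 (adjusted p = 0.0384 by limma). With both arrays that stood apart left out, 6 collagens passed in GR-deficient cortex, 4 higher and 2 lower. The 4 higher were Col4a1 (0.53), Col4a2 (0.52), Col18a1 (0.42) and Col1a1 (0.40), and Col19a1 (-0.37) joined Col4a4 on the lower side.

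Col3a1 read 7.8, 7.59 and 7.68 in healthy GR-deficient cortex and 7.88, 8.14 and 7.81 after AKI, a difference of 0.25 (95% interval 0.01 to 0.50, adjusted p = 0.25 by limma). Col18a1 read 8.67, 8.24 and 8.25 and then 8.65, 8.81 and 8.54, with healthy replicate 1 among the AKI arrays. Col8a1 read 6.88, 7.09 and 7.19 and then 7.41, 7.38 and 7.31. The AKI arrays of Col3a1 and Col8a1 lay above the healthy ones, and those of Col18a1 overlapped with them. Col12a1 read 6.57, 6.31 and 6.26 and then 6.57, 6.58 and 6.65. Col14a1 read 8.39, 8.24 and 8.27 and then 8.02, 8.15 and 7.63, all AKI arrays lower, with a difference of -0.37 (95% interval -0.64 to -0.10, adjusted p = 0.12 by limma). Col1a1 read 8.36, 7.92 and 7.95 and then 8.32, 8.44 and 8.23, with overlap.

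Over the whole family, 10 collagens had a positive and 34 a negative difference in GR-deficient cortex, where the median over all genes was -0.03. In 13 of the 44 every AKI array lay below every healthy array, where 12.5% of all genes did so, and in 4 every AKI array lay above, where 12.8% did. In control cortex these counts were 3 below and 9 above, where 20.4% and 19.3% of all genes did so. Of the 34 uncalled collagens, 31 had a negative difference in GR-deficient cortex, down to -0.28.

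**Figure D4:**
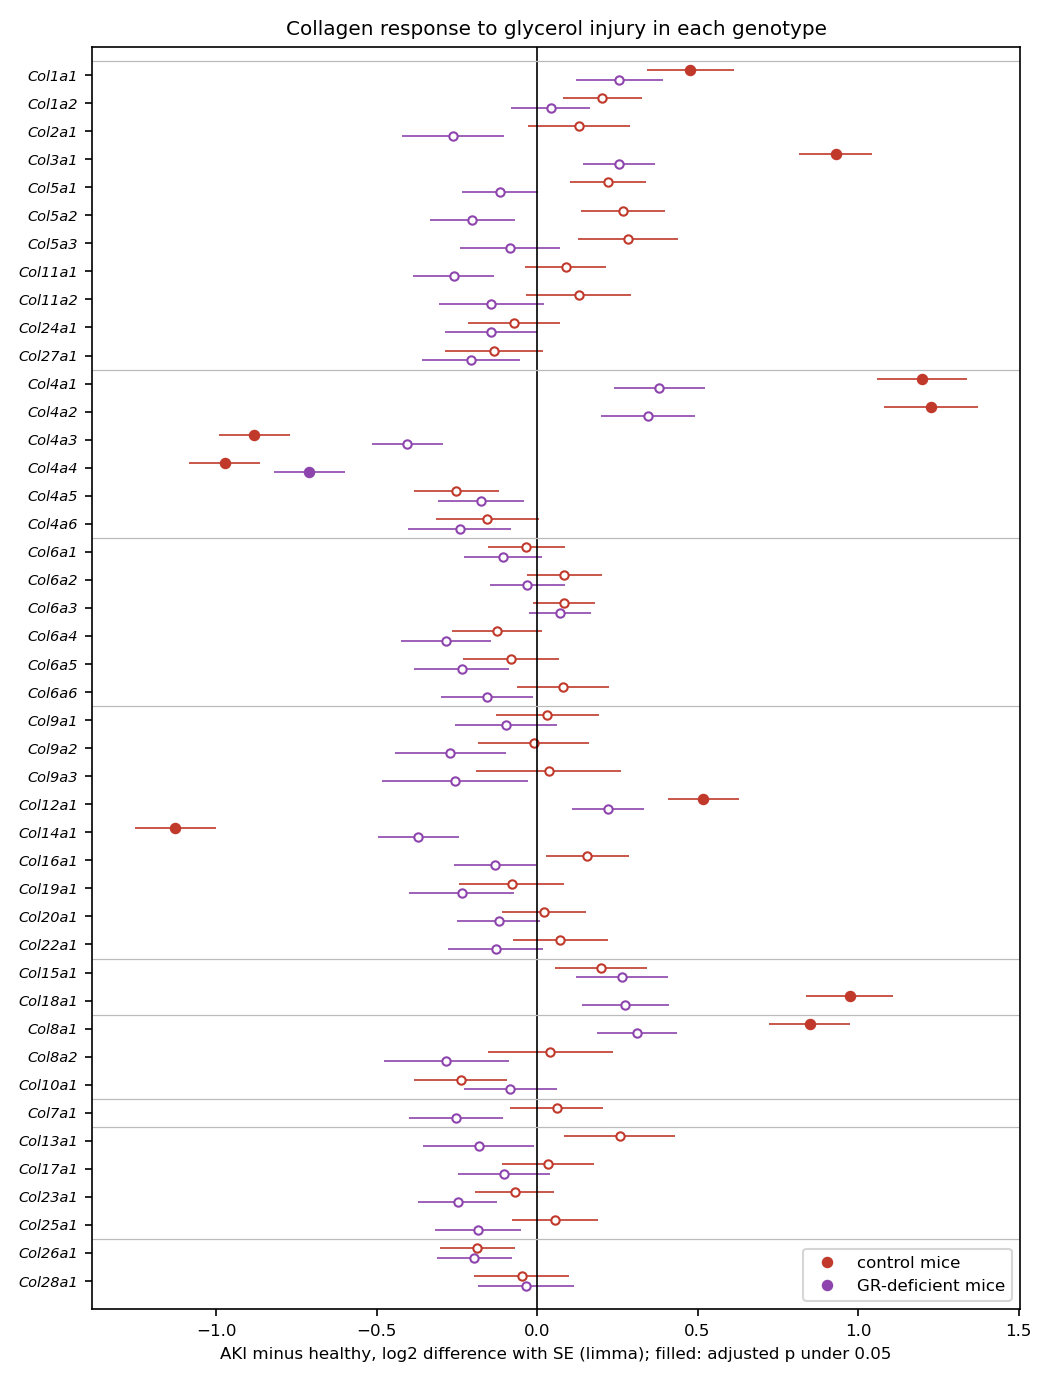
Log2 difference between AKI and healthy for each of the 44 collagen genes, with its SE, in control mice (red) and GR-deficient mice (purple), and filled points where the limma adjusted p is under 0.05. There are 10 filled points in control mice and 1, Col4a4, in GR-deficient mice, and for all 10 called genes the purple point lies on the same side of 0 and closer to it. The 10 genes were picked by their control values, so the latter is in part built in.

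The difference between the 2 injury responses was tested directly as an interaction. It passed for 5 of the 44 collagens, 4 negative and 1 positive, where 11.5% of all genes passed (4.06% negative, 7.39% positive). The 5 were Col4a1 (-0.82 ± 0.20 SE, adjusted p = 0.0152), Col4a2 (-0.88 ± 0.21, adjusted p = 0.0122), Col3a1 (-0.68 ± 0.16, adjusted p = 0.0133), Col18a1 (-0.70 ± 0.19, adjusted p = 0.0282) and Col14a1 (0.76 ± 0.18, adjusted p = 0.0133) by limma. In each the sign was opposite to the change in control cortex, so the response was smaller in GR-deficient cortex. The GR-deficient difference was 27.4% of the control one for Col3a1, 28.1% for Col4a2, 28.2% for Col18a1, 31.8% for Col4a1 and 32.8% for Col14a1. Such shares, from genes picked by their calls, can move with 1 array. Without healthy GR-deficient replicate 1 the Col4a2 difference in GR-deficient cortex was 0.52, against 0.34 with it. Col18a1 lost its call in 8 of 21 alternatives, with adjusted p up to 0.0772, and the other 4 kept theirs in all 21.

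For the other called collagens the interaction did not pass. It was 0.48 for Col4a3 (95% interval 0.15 to 0.81, adjusted p = 0.0637) and -0.54 for Col8a1 (-0.91 to -0.16, adjusted p = 0.0664) by limma. Each passed in some alternatives, Col4a3 in 4 and Col8a1 in 6, among them array weights (adjusted p = 0.00292 and 0.0194). For Col4a4 it was 0.26 (-0.07 to 0.60), for Col12a1 -0.30 (-0.63 to 0.04) and for Col1a1 -0.22 (-0.63 to 0.19). The GR-deficient difference for Col4a4 was 72.9% of the control one, the largest share of the 10 genes, and for its partner Col4a3 it was 45.8%. All 11 fibrillar genes had a negative interaction, from -0.68 to -0.07, with a median of -0.33 beside -0.03 over all genes. That median was -0.18 without replicate 1 of control AKI and -0.09 with both arrays that stood apart left out. The basement membrane genes split into 3 positive and 3 negative.

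After injury, GR-deficient and control cortex differed in 8 of the 44 collagens, 3 higher and 5 lower in GR-deficient cortex, where 17.4% of all genes passed (10.0% higher, 7.34% lower). These values use the same AKI arrays as the comparisons above and are set beside them, not counted as further evidence. Col4a1 was lower by a difference of -0.62 ± 0.14 (SE, adjusted p = 0.00632 by limma), Col4a2 by -0.58 (adjusted p = 0.0116), Col18a1 by -0.54 (adjusted p = 0.0115), Col3a1 by -0.49 (adjusted p = 0.00705) and Col8a1 by -0.46 (adjusted p = 0.02). Col14a1 was higher by 0.80 ± 0.13 (adjusted p = 0.000485 by limma), Col4a3 by 0.56 (adjusted p = 0.00249) and Col4a4 by 0.34 (adjusted p = 0.0473). In each of the 8 genes the 3 arrays of one genotype lay wholly above those of the other. Over the family, every GR-deficient AKI array lay above every control AKI array in 4 collagens, where 17.5% of all genes did so, and below in 6, where 15.3% did. Of the fibrillar collagens 1 of 11 passed, and Col1a1 differed by -0.15 (95% interval -0.44 to 0.14) and Col1a2 by 0.08 (-0.19 to 0.34).

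The 8 calls were not equally firm. Col4a4 lost its call in 9 of 16 alternatives, with adjusted p up to 0.196. Col4a2 and Col18a1 lost theirs without control AKI replicate 2 (-0.49 and -0.48) or GR-deficient AKI replicate 3 (-0.53 and -0.48), and Col8a1 without control AKI replicate 3 (-0.34) or GR-deficient AKI replicate 2 (-0.46) or 3 (-0.43). Without control AKI replicate 2, 5 collagens passed, and without GR-deficient AKI replicate 3, 4 did. Col4a1, Col3a1, Col4a3 and Col14a1 passed under every alternative. In the same samples 7 of 8 proximal tubule markers were higher and 6 of 7 neutrophil markers lower in GR-deficient than in control AKI cortex. Markers of the loop, distal tubule and collecting duct were higher in 5 of 8 and lower in 1. Fibroblast markers were higher in 2 of 10 and mural and mesangial markers in 1 of 10, with 0 lower in either list. Endothelial markers were higher in 3 of 9 and lower in 2, podocyte markers higher in 2 of 7 and lower in 1. Of 8 macrophage markers 1 was higher and 2 were lower. Of all genes, 10.0% were higher and 7.34% lower. The part of these markers in the collagen differences was not tested.

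In healthy cortex no collagen passed the test between genotypes by limma, where 0.145% of all genes did, and 1 of 44 had an unadjusted p under 0.05. That gene was Col5a2, with a difference of 0.37 (95% interval 0.08 to 0.65) and the smallest adjusted p of the family, 0.34. It is named because it alone had such a p, and its arrays read 6.28, 6.25 and 6.50 in control and 6.84, 6.44 and 6.85 in GR-deficient cortex, with overlap. The difference was positive for 38 of 44 collagens, with a median of 0.09, beside -0.01 over all genes. In 9 of 44 every GR-deficient array lay above every control array, where 8.08% of all genes did so, and in none did they all lie below, where 10.6% did. With both arrays that stood apart left out, the class medians were 0.10 for fibrillar, 0.03 for basement membrane and 0.04 for other collagens, against 0.11, 0.08 and 0.08 with them.

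Genes that fold, trim and crosslink collagen mostly rose where they changed in injured control cortex. Of 29 measured, 12 rose and 2 fell, beside 13.6% and 15.1% of all genes. Genes named from this list and the lists below were mostly picked by their p in control mice. Smaller differences for them in GR-deficient cortex are thus in part built in. Lox, whose product crosslinks fibrillar collagen, read 5.86, 5.66 and 5.47 in healthy and 6.63, 7.21 and 7.53 in injured control cortex, all AKI arrays higher. The fitted difference was 1.46 ± 0.19 (SE, adjusted p = 2.53e-05 by limma), but its healthy arrays all lay below the background guide of 5.998, so the size of the rise is uncertain. Plod2, which hydroxylates lysines of the collagen end regions, rose by 1.05, and Pcolce2, an enhancer of procollagen trimming, by 0.96. Serpinh1, the collagen chaperone HSP47, rose by 0.92 (chosen after its value was seen). P3h2, which hydroxylates prolines of type IV collagen, read 11.92 or more on the healthy arrays and 9.59, 9.95 and 10.37 on the injured arrays of control cortex. It fell by 2.00 on the log2 scale (SE 0.17, adjusted p = 6.08e-07 by limma), in the same samples in which Col4a3 and Col4a4 fell and Col4a1 and Col4a2 rose. In GR-deficient cortex 2 of the 29 rose and 1 fell, beside 3.29% and 1.35% of all genes, and P3h2 differed by -0.03 (adjusted p = 0.957 by limma). Its healthy GR-deficient arrays read 11.05, 11.27 and 11.59, all below the healthy control arrays (-0.66, adjusted p = 0.171 by limma).

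The peroxidase Pxdn, which joins type IV molecules through sulfilimine bonds, rose by 0.35 in control AKI (adjusted p = 0.0371 by limma). It read 8.21, 8.5 and 8.56 in control AKI and 7.61, 7.76 and 7.71 in GR-deficient AKI, without overlap, and was lower in the latter by a difference of -0.73 (adjusted p = 0.000548 by limma). In healthy cortex Pxdn read 8.12, 7.93 and 8.18 in control and 7.64, 7.53 and 7.75 in GR-deficient mice, also without overlap. That difference was -0.43 (adjusted p = 0.188 by limma), and the Pxdn interaction did not pass (-0.29, adjusted p = 0.31 by limma). In all, 3 of the 29 were higher and 7 lower in GR-deficient than in control AKI cortex, beside 10.0% and 7.34% of all genes. The interaction passed for 1 positive (P3h2, 1.97) and 5 negative, where 7.39% and 4.06% of all genes passed, among them Plod2 (-1.09), Lox (-1.09) and Pcolce2 (-0.86).

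Of 19 genes for collagen breakdown and its inhibitors, 7 rose and 2 fell in control AKI, beside 13.6% and 15.1% of all genes, and the means of 8 lay at or below the background guide. Timp1, an inhibitor of matrix metalloproteinases, read 5.53, 5.64 and 5.63 in healthy and 9.07, 9.41 and 9.50 in injured control cortex. The fitted difference was 3.73 ± 0.30 (SE, adjusted p = 4.25e-07 by limma), and in GR-deficient cortex 2.04, where AKI replicate 3 (6.83) lay well under replicates 1 (8.25) and 2 (8.51). The healthy arrays of both genotypes lay below the background guide, so the size of these rises is uncertain. Timp3, the inhibitor that is bound to the matrix, fell by 1.22 on the log2 scale in control AKI and differed by -0.16 in GR-deficient cortex. Between genotypes in healthy cortex Timp3 differed by -0.45 (adjusted p = 0.361 by limma), with every GR-deficient array lower. The stromelysin Mmp10 rose by 1.73 and Mmp7 by 0.87 in control AKI, and in GR-deficient cortex they differed by 0.04 and 0.05. The means of Mmp7 and of the neutrophil collagenase Mmp8 (0.83) over the 12 arrays lay below the background guide, and so did the healthy control mean of Mmp10. Mmp2, a gelatinase, differed by -0.33 in control cortex (adjusted p = 0.0546) and by -0.46 in GR-deficient cortex (adjusted p = 0.0447) by limma.

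Of 8 collagen receptors, 2 rose and 1 fell in control AKI, beside 13.6% and 15.1% of all genes. Itgb1, the common β chain of the collagen-binding integrins, rose by 0.63 and Itga2 by 0.48, while Itga1, the α chain with preference for type IV collagen, fell by 0.75 on the log2 scale. Itga1 read 10.07, 10.00 and 9.95 in healthy and 9.09, 9.26 and 9.41 in injured control cortex, and 9.99, 10.06 and 9.79 in GR-deficient AKI. The collagen-activated kinases Ddr1 and Ddr2 differed by 0.11 (adjusted p = 0.549) and -0.10 (adjusted p = 0.621) by limma. No receptor passed in GR-deficient cortex by limma, where 4.64% of all genes passed.

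**Figure D5:**
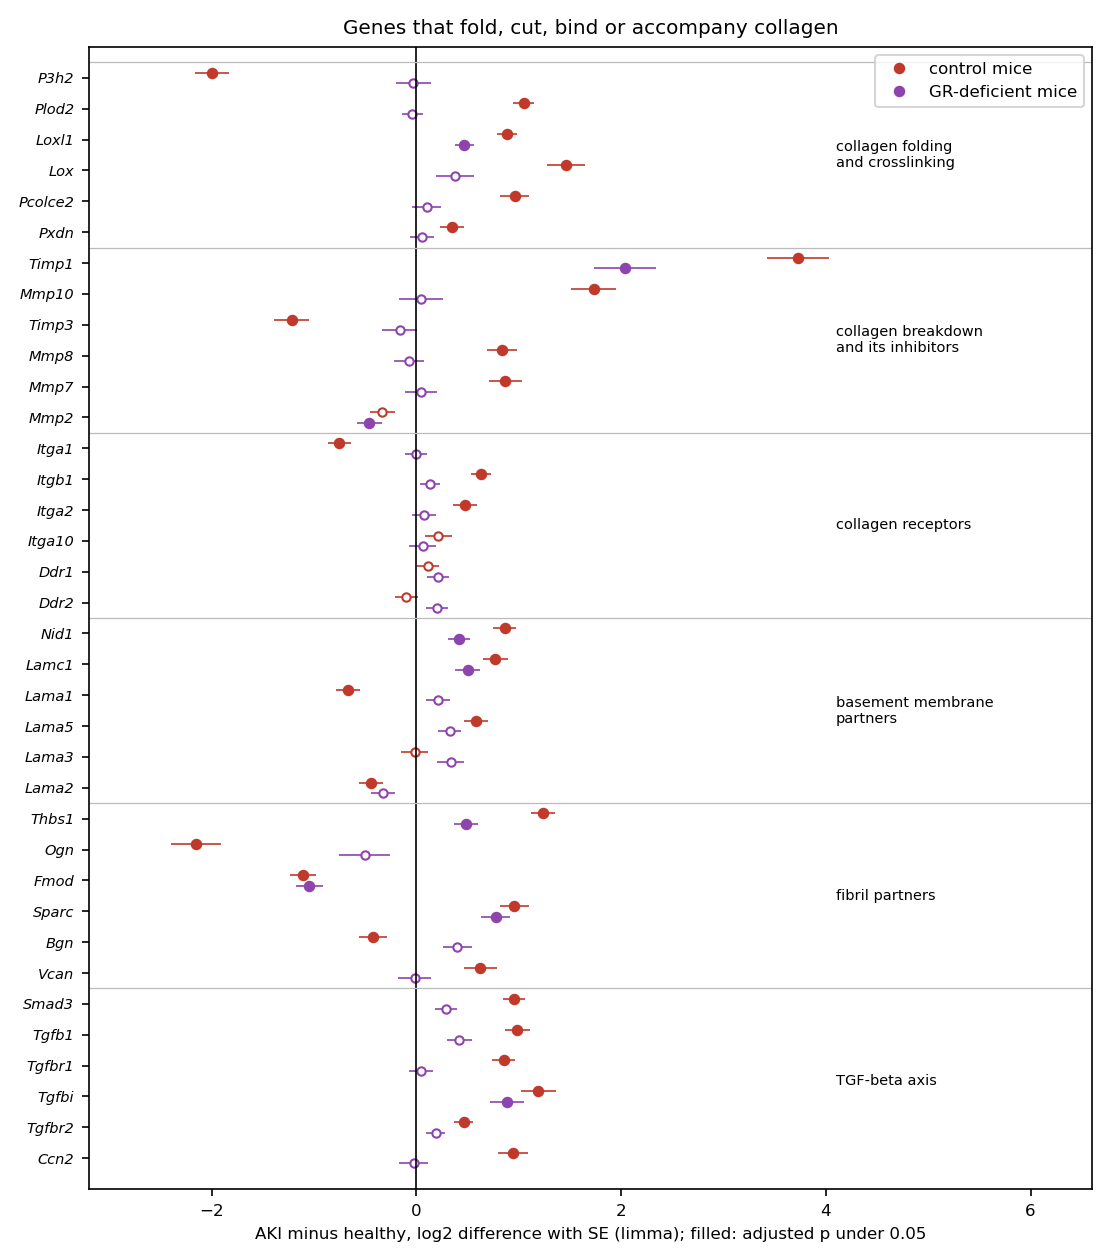
Log2 difference between AKI and healthy, with its SE, for 36 genes of 6 lists in control mice (red) and GR-deficient mice (purple), and filled points where the limma adjusted p is under 0.05. Timp1 has the highest difference in both genotypes, from healthy values below the background guide, and Ogn and P3h2 the lowest in control mice. Most purple points lie nearer 0 than the red points of the same gene. Most of these genes were picked by their p in control mice, so the latter is in part built in.

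Of 14 basement membrane partners of type IV collagen, 3 rose and 3 fell in control AKI, beside 13.6% and 15.1% of all genes. Nid1, the gene of nidogen that ties laminin to type IV collagen, rose by 0.86, Lamc1 by 0.77 and Lama5, of the laminin of mature tubule and glomerulus, by 0.58. Lama1, a chain of embryonic and tubule laminin, fell by 0.67 and Lama2, a mesangial laminin chain, by 0.44 on the log2 scale. Nid1 (0.42, adjusted p = 0.0398) and Lamc1 (0.50, adjusted p = 0.0354) also rose in GR-deficient cortex by limma. Lama1 read 7.14, 7.10 and 7.47 in control AKI and 7.78, 7.86 and 8.0 in GR-deficient AKI, and its interaction was 0.88 (adjusted p = 0.0029 by limma).

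Of 15 partners of collagen fibrils, 4 rose and 4 fell in control AKI, beside 13.6% and 15.1% of all genes. The means of 4 of the 15 lay at or below the background guide. Thbs1 rose by 1.23 and Sparc, a collagen-binding matricellular protein, by 0.95, and in GR-deficient cortex they rose by 0.48 and 0.78. Of the 6 small leucine-rich proteoglycans in the list, Ogn fell by 2.16, Fmod by 1.10, Dcn by 0.62 and Bgn by 0.42 on the log2 scale in control AKI. For Dcn and Bgn the AKI and healthy control arrays overlapped. Aspn (-0.57, adjusted p = 0.128) and Lum (-0.12, adjusted p = 0.609) did not pass by limma. The control AKI mean of Ogn lay below the background guide, and so did the means of Lum and Aspn in every group. Dcn, Lum and Aspn are named after their values were seen. In GR-deficient cortex Fmod fell by 1.04 (adjusted p = 0.000494 by limma), close to its control value, with an interaction of 0.06 (SE 0.18), while Ogn differed by -0.50 and Bgn by 0.40, neither called. Bgn was lower on every healthy GR-deficient array than on any healthy control array (-0.41, adjusted p = 0.316 by limma).

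Of 15 genes of the TGF-β axis, which drives collagen transcription in fibrosis, 7 rose and 1 fell in control AKI, 1 rose in GR-deficient AKI, and 5 were lower in GR-deficient than in control AKI. Of all genes, 13.6% rose and 15.1% fell in control AKI, 3.29% rose in GR-deficient AKI and 7.34% were lower in the last comparison. Tgfb1 read 8.17, 8.52 and 8.16 in healthy and 9.17, 9.33 and 9.32 in injured control cortex, and 8.98, 8.88 and 8.78 in GR-deficient AKI. It rose by 0.99 ± 0.12 (SE, adjusted p = 1.55e-05 by limma) in control cortex. The receptor Tgfbr1 rose by 0.85, the signal carrier Smad3 by 0.95 and Ccn2, a target known as connective tissue growth factor, by 0.94. In GR-deficient cortex these 4 differed by 0.42, 0.04, 0.29 and -0.03, none called by limma, and Tgfbi, a secreted collagen-binding target, rose by 0.89 (adjusted p = 0.0082). The interaction passed for 4 of 15, all negative, where 4.06% of all genes passed with a negative value. The summed level of the list ran from 9.01 to 9.12 in control AKI and from 8.54 to 8.63 in GR-deficient AKI, without overlap.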

How the data were processed

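Expression was measured on 12 biotin-labelled single-colour arrays of total RNA from mouse renal cortex, 3 per group. The authors deposited log2 values per probe set, for which the submitters' processing notes name RMA, affy and oligo, with versions not given in the sources used here. The log base was read from the values, which reach 14.73 to 14.90 per array. The platform annotation gave 1 symbol to 21789 of 35556 probe sets, several to 1621 and none to 12146. The probe set with the highest mean over 12 arrays stood for each of 19938 genes. Arrays measure hybridisation and give no read depth; their number limits the precision.

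A limma 3.58.1 fit (R 4.3.3) of 4 group means to all 12 arrays gave 5 two-sided comparisons, moderated by eBayes (8 residual and 6.26 prior degrees of freedom), with Benjamini-Hochberg adjustment over all genes and a threshold of 0.05. Collagens called in any comparison, Col1a1, Col1a2, Col3a1 and the type IV genes are named, and from each other list up to 4 genes by p in control mice and up to 2 by another comparison. The members, classes, lists and tests were chosen with earlier results of these data known. List levels are the log2 of the mean linear value. The fit was tested on simulated data, where 90% of genes changed by 1 log2 unit and 29% of those changed by 0.5 were found for AKI in control mice, and 56% and 3% for the interaction. Only 200 of 19938 genes were changed there, while 28.7% and 11.5% passed in the data. The adjusted threshold was thus stricter in the simulation, and its rates do not carry over to the data. Alternatives were renormalization (quantile, cyclic loess), array weights, a filter on dim genes, other probe set rules, eBayes settings, the 2 groups alone, a replicate block, each array left out in turn and, added after seeing the data, the 2 arrays that stand apart left out together. RefSeq promoter windows (GRCm38.p6) were searched for 5 motifs.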

Additional observations from a re-analysis of the deposited data

Results flagged for a closer look

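The injury response of 5 collagens differed between the genotypes by the interaction test (limma, adjusted over all genes, 3 arrays per group). The interaction was -0.88 for Col4a2, -0.82 for Col4a1, -0.70 for Col18a1, -0.68 for Col3a1 and 0.76 for Col14a1 on the log2 scale. In every one the difference in GR-deficient cortex had the sign of that in control cortex and was smaller.

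The genes named beside them were picked by their p in control mice or in another comparison, the interaction included. Passing is thus in part built in for them. Of all genes, 11.5% passed the interaction test. Among the named genes, the same test passed for P3h2 (1.97), Plod2 (-1.09), Lox (-1.09) and Pcolce2 (-0.86) of folding and crosslinking. It passed for Timp1 (-1.69), Mmp10 (-1.69), Timp3 (1.05), Mmp8 (-0.90) and Mmp7 (-0.82) of breakdown, and for the receptors Itga1 (0.75) and Itgb1 (-0.50). It also passed for Lama1 (0.88), Thbs1 (-0.75), Ogn (1.65) and Bgn (0.82) of the matrix partners, and for Smad3 (-0.66), Tgfb1 (-0.57), Tgfbr1 (-0.81) and Ccn2 (-0.97) of the TGF-β axis. Bgn and Lama1 had differences of opposite sign in the 2 genotypes. They were -0.42 in control and 0.40 in GR-deficient cortex for Bgn, and -0.67 and 0.21 for Lama1. The GR-deficient values did not pass the test, and the AKI and healthy control arrays of Bgn overlapped.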

How the results depend on the processing

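Of 24 collagen calls, 18 were kept in every alternative, and over 409 alternative values 384 kept the call, 25 lost it and 0 changed sign. Of the 10 collagens called for AKI in control mice, 10 were called again with array weights (17 in all) and with both arrays that stand apart left out (16); leaving out 1 array at a time gave 9 to 14. For AKI in GR-deficient mice, 1 collagen was called; quantile normalization gave 3, cyclic loess 2, array weights 10, the filter on dim genes 2, the trend and robust eBayes 2, both arrays left out 6, and leaving out 1 array 1 to 2. For GR-deficient against control in AKI, 8 were called and 4 to 7 with 1 array left out; for the interaction, 5 and 4 to 6; in healthy mice, 0 and 0 to 0. Over all genes the count with array weights was 9648 against 5715 for AKI in control mice, 3196 against 926 for AKI in GR-deficient mice, 7000 against 3460 for genotype in AKI and 4905 against 2283 for the interaction. Quantile normalization moved the share of higher calls from 70.8% to 60.2% for AKI in GR-deficient mice and from 64.5% to 53.0% for the interaction. Uncalled values near 0 changed sign, and the cause was not tested. Col1a2 for AKI in GR-deficient mice was -0.04 after quantile normalization and -0.017 after cyclic loess, and ran from -0.042 to 0.17 with 1 array left out. Col1a1 was 0.026 for genotype in AKI and 0.066 for the interaction with array weights, and 0.008 for the interaction with both arrays left out. Col4a6 for AKI in control mice ran from -0.299 to 0.021 with 1 array left out, the latter without control AKI replicate 3.

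Replicate numbers are shared by the groups, but 3 of 18 correlations between same-numbered arrays were over 0.1 (range -0.41 to 0.25), which gave no sign of pairing. With 3 arrays a group this check cannot exclude that same-numbered samples share a batch. A fit with a replicate block gave 10, 1, 0, 7 and 5 collagens for AKI in control mice, AKI in GR-deficient mice, genotype in healthy mice, genotype in AKI and the interaction.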
